A study of Mus musculus with 15 samples.

Results

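The peroxiredoxins Prdx1 to Prdx6, the superoxide dismutases Sod1 and Sod2, and catalase (Cat) are the enzymes that remove superoxide and hydrogen peroxide inside the cell. All 9 genes were looked up by symbol in the array annotation, and each gene was read from the brightest probe set that named it alone. This gave values for 7 of the 9 genes among 19296 genes measured in the same way. Prdx5 and Prdx6 had no probe set of their own and were not analysed here.

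Superoxide dismutases turn superoxide into hydrogen peroxide, Sod1 with copper and zinc in the cytosol and Sod2 with manganese in mitochondria. Peroxiredoxins reduce the peroxide with a reactive cysteine that thioredoxin then restores, with Prdx1 and Prdx2 mainly in the cytosol, Prdx3 in mitochondria and Prdx4 in the endoplasmic reticulum, whereas catalase breaks it down in peroxisomes with a haem group. Blood stem cells are known for keeping reactive oxygen species low, and these enzymes, many of them under the control of the transcription factors NRF2 and FoxO, belong to that system.

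RNA was measured on 15 Affymetrix arrays of C57Bl/6 mouse bone marrow cells from a study of replication stress in ageing stem cells. Haematopoietic stem cells (HSC) were gated as positive for cKit, Sca1 and CD150 and negative for lineage markers, Flk2 and CD48. Granulocyte/macrophage progenitors (GMP) were positive for cKit, CD34 and the Fc gamma receptor and negative for Sca1 and lineage markers. Both were double sorted by flow cytometry, and the RNA was amplified with a whole-transcript kit before biotin labelling. There were 5 arrays of young HSC, 3 of old HSC, 4 of young GMP and 3 of old GMP. Young mice were 6 to 12 weeks old, old mice were 22 to 30 months old, none was labelled as mutant or treated, and all were labelled male. Whether an array held cells of a single mouse or of a pool is not given in the labels, so the p-values below measure only the spread between arrays.

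The sorted populations carried their markers. All 10 measured HSC markers were higher in HSC than in GMP at both ages, and of the 12 GMP markers 12 in young mice and 11 in old mice were higher in GMP, by limma adjusted p under 0.05. The medians of the arrays lay between 7.25 and 7.42 log2, but the interquartile range of an array ran from 1.96 to 2.33 log2 in old HSC, from 2.21 to 2.69 in young HSC, from 2.27 to 2.48 in old GMP and from 2.13 to 2.6 in young GMP. Against the male label, 7 of the 9 young arrays carried the X-inactivation transcript Xist more than 1 log2 above each of the 6 old arrays. Young HSC replicate 1 and young GMP replicate 1 were the remaining young arrays. Young HSC replicates 3 and 5 and young GMP replicate 3 had Xist at 10.02, 10.26 and 8.92 log2. Their Y-linked means were 8.47, 8.42 and 8.28, and the lowest of any old array was 8.45. These young arrays thus carried RNA of both sexes, as cells pooled from several mice would. Pooling itself was not tested. Replicate 2 of young HSC and of young GMP had lower Y-linked means (7.12 and 7.2). Of the marker lists of 8 other cell types, none had more than 1 gene called higher or more than 1 called lower with age in HSC. The megakaryocyte list had 1 of each, Itgb3 higher (1.12 log2) and Gp5 lower (-0.84). In bulk RNA of this kind, fewer cells expressing a gene and less of its RNA per cell cannot be told apart.

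Promoter windows of 300 bases, 250 before and 50 after the annotated start, were available from RefSeq (GRCm38.p6) for all 7 measured genes. They are shown for Prdx4, Prdx1 and Cat, which fell with age in HSC, and for Sod1, whose values in old and young HSC overlapped. Each is written 5′ to 3′ along its gene. Capitals mark 3 motifs searched on both strands: the antioxidant response element TGACNNNGC, to which NRF2 binds, the E-box CACGTG, and CCAAT. The windows lie at chrX:155338411-155338710 on the minus strand for Prdx4, chr4:116685349-116685648 on the plus strand for Prdx1, chr2:103485104-103485403 on the minus strand for Cat and chr16:90220512-90220811 on the plus strand for Sod1.
Prdx4: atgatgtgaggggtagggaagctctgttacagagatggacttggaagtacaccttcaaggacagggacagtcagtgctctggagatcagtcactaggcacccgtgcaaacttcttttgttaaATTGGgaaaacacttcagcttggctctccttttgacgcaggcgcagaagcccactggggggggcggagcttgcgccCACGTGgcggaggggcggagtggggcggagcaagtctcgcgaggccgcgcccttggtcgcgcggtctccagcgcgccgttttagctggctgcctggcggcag
Prdx1: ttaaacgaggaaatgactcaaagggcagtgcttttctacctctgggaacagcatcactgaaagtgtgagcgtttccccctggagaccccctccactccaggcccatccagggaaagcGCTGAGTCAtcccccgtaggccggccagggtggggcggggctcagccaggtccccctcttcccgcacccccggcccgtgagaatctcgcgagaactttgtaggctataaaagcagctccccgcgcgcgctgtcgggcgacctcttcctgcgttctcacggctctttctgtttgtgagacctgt
Cat: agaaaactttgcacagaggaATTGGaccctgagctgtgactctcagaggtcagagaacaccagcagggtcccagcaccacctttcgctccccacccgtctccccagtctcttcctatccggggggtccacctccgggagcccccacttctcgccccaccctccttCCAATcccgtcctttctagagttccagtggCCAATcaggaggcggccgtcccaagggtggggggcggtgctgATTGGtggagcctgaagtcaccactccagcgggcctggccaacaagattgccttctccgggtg
Sod1: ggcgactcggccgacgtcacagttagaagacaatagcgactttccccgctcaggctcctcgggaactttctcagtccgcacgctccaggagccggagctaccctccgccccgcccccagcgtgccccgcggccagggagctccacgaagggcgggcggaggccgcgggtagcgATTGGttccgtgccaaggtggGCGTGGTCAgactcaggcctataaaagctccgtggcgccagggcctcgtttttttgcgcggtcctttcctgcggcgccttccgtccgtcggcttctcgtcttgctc

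The antioxidant response element letters occurred in Prdx1 at position -133 from the start of the gene, and in Sod1 at position -56, and in 12.4% of 32544 promoter windows of the same length. The E-box letters occurred in Prdx4 at position -52, and in 7.17% of all windows. CCAAT occurred 4 times in Cat and 1 time each in Prdx4, Sod1 and Sod2, and in 37.4% of all windows. The FOXO letters TGTTTAC occurred in none of the 7 genes and in 3.66% of windows, and the GC box GGGCGG in all 7 and in 35.9% of windows. The windows of the 7 genes held 57% to 68.7% G and C, against a median of 53% over all windows. The shares over all windows were not matched for this. The capital letters overlapped no GC box in the windows shown. Such matches describe letters in a window and do not show binding. Among the genes called with age in HSC, the antioxidant response element letters occurred in Prdx1 and not in Prdx4, Sod2 or Cat. Among those not called, they occurred in Sod1 and not in Prdx2 or Prdx3. A link between these letters and the age differences was not tested.

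The first comparison asked how the enzymes differed between old and young stem cells. Prdx4, Prdx1, Sod2 and Cat fell with age in HSC, and Prdx3, Prdx2 and Sod1 did not pass the test. None rose. Of all genes, 9.22% were called lower and 2.25% higher in old HSC, so 4 of 7 called lower was above the share of all genes. All 7 genes had lower means in old HSC, with a median difference of -0.70 log2 against 0.03 over all genes. In 10 groups of equal size by mean expression, the 7 genes lay in those ranked 8 to 10. The medians over all genes there were -0.23, -0.30 and -0.29 log2, so lower means were common among genes as bright. The share called lower among genes of like brightness was not counted.

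**Figure D1:**
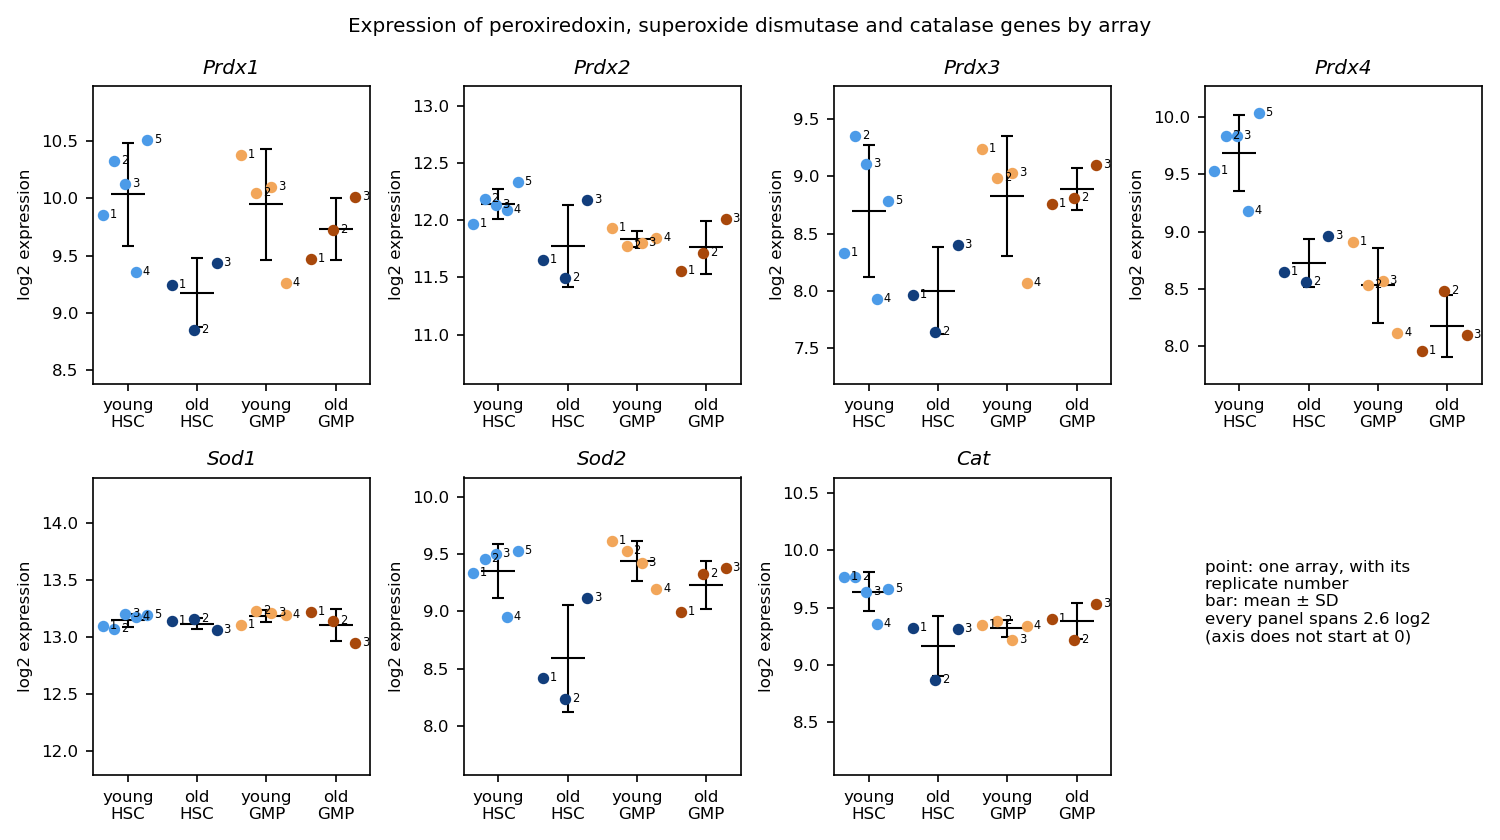
Log2 expression of each gene (vertical axis) on every array, by group (horizontal axis), with the replicate number beside each point and bars for the mean ± SD. Prdx4 and Cat have every old HSC array below every young HSC array, Prdx4 is highest in young HSC, and the points of Sod1 lie between 12.95 and 13.23 in all 4 groups.

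Among the cytosolic peroxiredoxins, Prdx1 read 9.86, 10.33, 10.13, 9.36 and 10.51 log2 on young HSC replicates 1 to 5 and 9.24, 8.85 and 9.44 on old HSC replicates 1 to 3. The groups overlapped through a single pair, since young HSC replicate 4 lay below old HSC replicate 3. Prdx1 was 1.82-fold lower in old HSC (log2 difference -0.86 ± 0.24 SE, 95% interval -1.37 to -0.35, limma adjusted p = 0.0304). A second, dimmer Prdx1 probe set gave -0.94 ± 0.24 (limma adjusted p = 0.0217). The call was lost without old HSC replicate 1 (limma adjusted p = 0.0909) or 2 (0.185) and without young HSC replicate 2 (0.0747), 3 (0.0689) or 5 (0.0683). It was also lost after quantile normalisation of the arrays (-0.60, limma adjusted p = 0.0681).

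Prdx2, an abundant peroxiredoxin of the red cell lineage, read 11.97, 12.19, 12.13, 12.09 and 12.33 log2 in young HSC and 11.65, 11.49 and 12.18 in old HSC. Old HSC replicates 1 and 2 lay below all young arrays and replicate 3 lay among them. The difference was -0.37 ± 0.14 and did not pass (limma adjusted p = 0.0923, 95% interval -0.67 to -0.07); without old HSC replicate 3 it was -0.57 and passed (0.0118). A dimmer Prdx2 probe set fell 1.72-fold (-0.78 ± 0.20, limma adjusted p = 0.0194). It read 10.27, 10.57, 10.55, 9.70 and 10.58 in young HSC and 9.49, 9.25 and 9.91 in old HSC. RefSeq lists pseudogene copies of both Prdx1 and Prdx2, and which copies each probe set also reads is not given, so both genes are uncertain to that extent. The mean of 9 measured erythroid markers was 7.08 to 7.19 log2 in old HSC and 6.89 to 7.31 in young HSC. One of them, the anion exchanger gene Slc4a1, was called, 1.31-fold higher in old HSC, while the globin genes were not analysed here. The part of erythroid RNA in the Prdx2 values was not tested.

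Prdx3, the mitochondrial peroxiredoxin, read 8.33, 9.36, 9.10, 7.93 and 8.78 log2 in young HSC and 7.97, 7.64 and 8.40 in old HSC. The lowest young array, replicate 4, lay between the old arrays. The difference of -0.70 ± 0.28 did not pass (limma adjusted p = 0.103, 95% interval -1.28 to -0.11). Without young HSC replicate 4 it was -0.89 and passed (limma adjusted p = 0.0138).

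Prdx4, the peroxiredoxin of the endoplasmic reticulum, had the largest age difference of the 7 genes in HSC. It read 9.53, 9.84, 9.84, 9.18 and 10.04 log2 in young HSC and 8.65, 8.56 and 8.96 in old HSC. Every old array lay below every young array. The same held for Cat among the 7 genes and for 7.69% of all genes, and old arrays all above young ones, seen for 0 of the 7, occurred for 5.10%. The mean was 1.95-fold lower in old HSC (-0.96 ± 0.19, 95% interval -1.36 to -0.56, limma adjusted p = 0.00639). The call held without each single array (limma adjusted p from 0.00033 to 0.0489). Prdx4 lies on the X chromosome, where 7 young arrays differed from the old arrays in Xist. With the Xist level in the model it was -1.11 (limma adjusted p = 0.0191), and Prdx1, Sod2 and Cat also passed in that model (limma adjusted p = 0.0340, 0.0249 and 0.0339). Young HSC replicate 1, the young HSC array with low Xist, read 9.53 for Prdx4 against 8.96 on the highest old array.

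The copper-zinc dismutase Sod1 read 13.10, 13.07, 13.20, 13.18 and 13.19 log2 in young HSC and 13.14, 13.15 and 13.06 in old HSC. These groups overlapped almost fully. The difference was -0.03 ± 0.10 (limma adjusted p = 0.851), and its 95% interval of -0.23 to 0.17 holds changes of either sign. The SD of Sod1 was 0.059 in young HSC and 0.050 in old HSC. Whether this bright probe set was near saturation was not tested.

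The mitochondrial dismutase Sod2 read 9.33, 9.45, 9.51, 8.95 and 9.52 log2 in young HSC and 8.42, 8.23 and 9.12 in old HSC. Old HSC replicates 1 and 2 lay below all young arrays, while replicate 3 lay above young HSC replicate 4. Sod2 was 1.70-fold lower in old HSC (-0.76 ± 0.18, 95% interval -1.14 to -0.39, limma adjusted p = 0.0138). The call was lost without old HSC replicate 1 (-0.68, limma adjusted p = 0.0787) or replicate 2 (-0.59, limma adjusted p = 0.109).

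Catalase read 9.77, 9.77, 9.64, 9.36 and 9.66 log2 in young HSC and 9.32, 8.87 and 9.31 in old HSC. The groups did not overlap, though young HSC replicate 4 and old HSC replicate 1 were close. Cat was 1.39-fold lower in old HSC (-0.47 ± 0.13, 95% interval -0.74 to -0.20, limma adjusted p = 0.0259), the smallest of the 4 falls. Its call was lost without old HSC replicate 1 (limma adjusted p = 0.0571) or 2 (0.194) and without young HSC replicate 1 (0.0534), 2 (0.0634) or 3 (0.0568). After quantile normalisation the difference was -0.20 and no longer passed (limma adjusted p = 0.198).

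**Figure D2:**
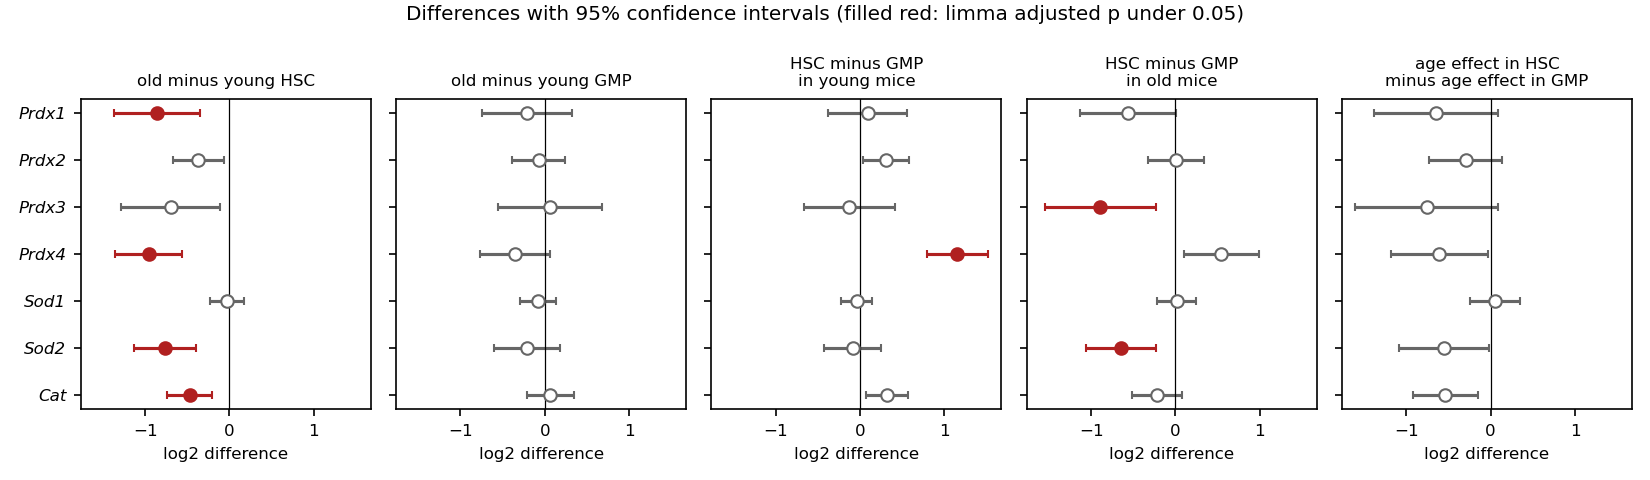
Log2 differences (horizontal axes) with 95% confidence intervals for the 7 genes (vertical axis) in the 5 comparisons, filled red where the limma adjusted p was under 0.05. The filled points are 4 genes lower in old than in young HSC, Prdx4 higher in HSC than in GMP of young mice, and Prdx3 and Sod2 lower in HSC than in GMP of old mice.

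Bright genes as a class had lower values in old HSC. In the 10 groups of equal size by mean expression, the median difference over all genes ran from 0.17 log2 in the group ranked 3 to -0.30 in the group ranked 9 and -0.29 in the brightest. Prdx4 stood at percentile 1.56 of the differences in its own brightness group, Prdx1 at 3.11, Prdx3 at 5.28 and Sod2 at 6.07. Cat stood at percentile 28.6, Prdx2 at 40.9 and Sod1 at 81.2. The fall of Cat therefore lay within the middle 50% of genes of like brightness, whereas those of Prdx4, Prdx1 and Sod2 lay below it.

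**Figure D3:**
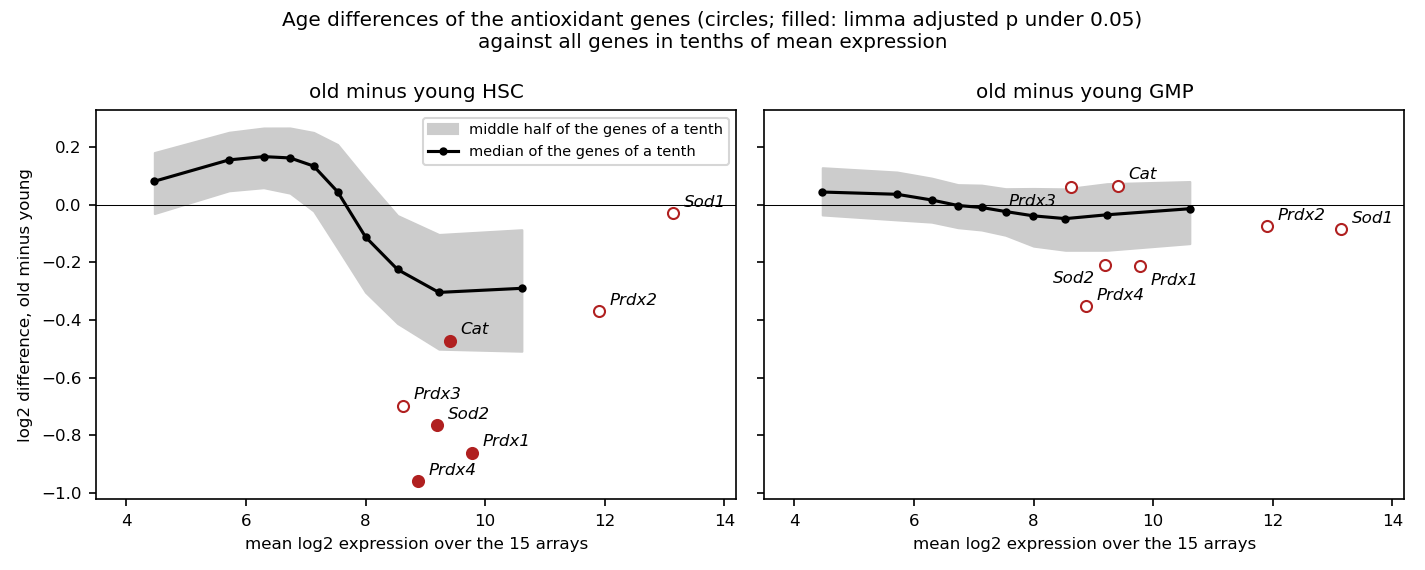
Old minus young difference (vertical axis, log2) against mean expression (horizontal axis, log2) in HSC and GMP. The line joins the medians of all genes in 10 brightness groups with the band for their middle 50%, and circles are the 7 genes, filled where called; in HSC the band turns downward for bright genes and Prdx4, Prdx1, Sod2 and Prdx3 lie below it.

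Several of the genes were lowest on arrays with a narrow spread. Old HSC replicate 2, which had the narrowest interquartile range of all arrays (1.96 log2), was the lowest old HSC array for Prdx1, Prdx2, Prdx3, Prdx4, Sod2 and Cat. Young HSC replicate 4, the narrowest young HSC array (2.21), was the lowest of its group for Prdx1, Prdx3, Prdx4, Sod2 and Cat, and young GMP replicate 4 (2.13) for Prdx1, Prdx3, Prdx4 and Sod2. In old GMP the narrowest array, replicate 2 (2.27), was lowest of its group for Cat only and highest for Prdx4. Old GMP replicate 1 was the lowest there for Prdx1, Prdx2, Prdx3, Prdx4 and Sod2. Sod1 did not share the order seen in HSC and was highest, among the old HSC arrays, on replicate 2. With the interquartile range of each array in the model, 0 of the 7 genes were called with age in HSC, and Prdx4 stood at -0.58 (limma adjusted p = 0.285), Sod2 at -0.33 (0.506), Cat at -0.23 (0.572) and Prdx1 at -0.22 (0.803). The spread of the arrays and age differed together in HSC and were not separated further. Replicate 4 of young HSC and of young GMP also had the lowest Y-linked means of all arrays (4.94 and 5.20 log2). Sex and array spread were not separated on these arrays.

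**Figure D4:**
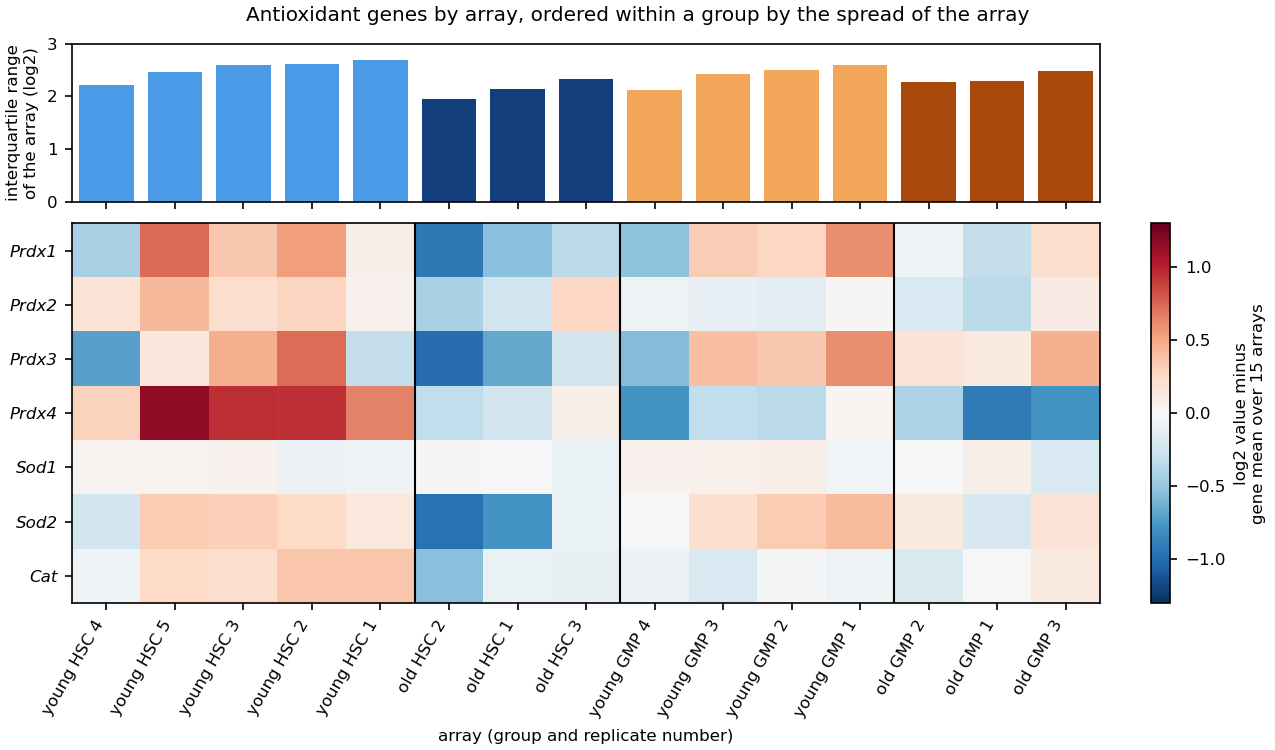
Upper panel: interquartile range of each array (log2, bars from 0). Lower panel: log2 value of each gene minus its mean over the 15 arrays (colour scale). Arrays are ordered by the interquartile range within young HSC, old HSC, young GMP and old GMP. Within young HSC, old HSC and young GMP the narrowest array is the bluest column of its group, and the row of Sod1 stays near white.

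The second comparison asked whether the same enzymes differed with age in GMP. No gene of the array was called there (0% of all genes; 870 genes had an unadjusted p under 0.05 and the smallest limma adjusted p was 0.294), and 0 of the 7 genes were. Of the 7, 5 were lower and 2 higher in old GMP, with a median difference of -0.08 log2 against -0.01 over all genes. Each of the 7 overlapped between the age groups, while 3.72% of all genes had every old GMP array below every young one and 3.10% above. Their limma adjusted p was 1.00.

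Prdx4 showed the largest of these differences. It read 8.91, 8.53, 8.57 and 8.11 log2 in young GMP and 7.96, 8.48 and 8.09 in old GMP. Old GMP replicates 1 and 3 lay below all young arrays, and the difference was -0.35 ± 0.20 (95% interval -0.77 to 0.06). Prdx1 read 10.38, 10.05, 10.10 and 9.26 in young GMP and 9.47, 9.72 and 10.01 in old GMP, a difference of -0.21 ± 0.25. The lowest GMP array for Prdx1 was thus a young one.

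Sod2 read 9.61, 9.52, 9.42 and 9.20 in young GMP and 8.99, 9.32 and 9.38 in old GMP, a difference of -0.21 ± 0.19. Cat read 9.35, 9.38, 9.21 and 9.34 in young GMP and 9.40, 9.22 and 9.53 in old GMP, a difference of 0.07 ± 0.13. The ages were interleaved for both genes. Prdx3 read 9.24, 8.98, 9.03 and 8.07 in young GMP and 8.76, 8.81 and 9.10 in old GMP (0.06 ± 0.29), and young GMP replicate 4 alone set its wide spread. Without that array the Prdx3 difference was -0.19 and still did not pass (limma adjusted p = 0.917).

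Prdx2 read 11.93, 11.77, 11.80 and 11.84 in young GMP and 11.56, 11.72 and 12.01 in old GMP (-0.07 ± 0.15). Sod1 read 13.11, 13.23, 13.21 and 13.20 in young GMP and 13.22, 13.14 and 12.95 in old GMP (-0.08 ± 0.10). Neither gene separated the ages, and the intervals of -0.39 to 0.24 for Prdx2 and -0.30 to 0.13 for Sod1 bound the change that 7 GMP arrays could have shown.

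Whether the age difference in HSC differed from that in GMP was tested directly. None of the 7 genes passed, against 0.0933% of all genes (0.0259% higher and 0.0674% lower). The difference between the age effects (HSC minus GMP) was -0.76 ± 0.41 for Prdx3, -0.65 ± 0.35 for Prdx1, -0.61 ± 0.27 for Prdx4, -0.56 ± 0.26 for Sod2 and -0.54 ± 0.19 for Cat, with limma adjusted p between 0.325 and 0.471. It was -0.30 ± 0.21 for Prdx2 and 0.05 ± 0.14 for Sod1 (limma adjusted p = 0.551 and 0.875). The falls seen in HSC were therefore not shown to be particular to HSC. This fit did not pair the young HSC and young GMP arrays by replicate number.

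The third comparison set stem cells against progenitors in young mice. Without pairing of the arrays, Prdx4 was the one gene of the 7 called, 2.23-fold higher in HSC. Of all genes, 13.6% were called higher and 10.9% lower, so 1 of 7 was near the share of all genes. Pairing by replicate number also called Cat, as given below. The median difference of the 7 genes was 0.09 log2 against -0.05 over all genes. Markers of other cells also differed: 8 of 9 mast cell and basophil markers and 6 of 10 mature neutrophil markers were lower in young HSC, and 7 of 9 megakaryocyte markers were higher. Their part in the enzyme values was not tested.

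Prdx4 was 9.68 ± 0.33 log2 in young HSC (SD, n = 5) and 8.53 ± 0.33 in young GMP (n = 4). All 5 HSC arrays lay above all 4 GMP arrays, as 11.7% of all genes did, and 9.51% lay the other way. The difference of 1.16 ± 0.17 (95% interval 0.79 to 1.52, limma adjusted p = 4.2e-05) passed in each of 25 other settings of the analysis. Leaving out an old array kept this difference, so these settings are not separate checks. Prdx2 had the same separation, at 12.14 ± 0.13 in HSC and 11.84 ± 0.07 in GMP, by a gap of 0.04 log2 between the nearest arrays. Its difference of 0.31 ± 0.13 did not pass (limma adjusted p = 0.103), but passed without old HSC replicate 3, which enters through the shared spread (0.0464), and on the dimmer probe set (0.63 ± 0.18, limma adjusted p = 0.0138).

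Cat was 9.64 ± 0.17 in young HSC and 9.32 ± 0.07 in young GMP, where the lowest HSC array lay just under the highest GMP arrays. The difference of 0.32 ± 0.12 missed the threshold (limma adjusted p = 0.0557). With the replicate number as a block, which pairs the young HSC and GMP arrays, Cat passed at 0.31 (limma adjusted p = 0.03). This brought the enzyme genes called to 2. In that fit 3081 of all 19296 genes were called higher and 3040 lower, against 2633 and 2108 without the block. Cat also passed without young HSC replicate 4 (0.39, limma adjusted p = 0.0132) or old HSC replicate 2 (0.32, limma adjusted p = 0.0307).

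The other 4 genes had close means in young HSC and young GMP. The differences were 0.09 ± 0.22 for Prdx1, -0.13 ± 0.26 for Prdx3, -0.04 ± 0.09 for Sod1 and -0.09 ± 0.16 for Sod2. Their 95% intervals were -0.38 to 0.56, -0.67 to 0.41, -0.23 to 0.15 and -0.43 to 0.25 in the same order. The interval was narrow only for Sod1.

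The last comparison set old HSC against old GMP. Prdx3 and Sod2, both mitochondrial, were lower in HSC than in GMP, by 1.85-fold and 1.56-fold. The test of a change in this difference between ages is the one given above for the age effects, which 0 of the 7 genes passed. In this comparison 13.0% of all genes were called lower and 9.25% higher, so 2 of 7 lower stood somewhat above the share of all genes. The median difference was -0.22 log2 against 0.02 over all genes. The 7 genes lay in the brightness groups ranked 8 to 10, whose medians over all genes were -0.11, -0.24 and -0.31 log2. The median of the 7 genes was thus within the range of genes of like brightness. Prdx3 stood at percentile 8.19 of the differences in its own brightness group and Sod2 at 23.2.

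Prdx3 was 8.0 ± 0.38 log2 in old HSC and 8.89 ± 0.18 in old GMP (SD, n = 3 each), with all HSC arrays below all GMP arrays, as for 18.4% of all genes. Its difference of -0.89 ± 0.31 was close to the threshold (limma adjusted p = 0.0481). The call was lost without old GMP replicate 1 (limma adjusted p = 0.0743), 2 (0.0846) or 3 (0.166) and without old HSC replicate 1 (0.115) or 2 (0.203). It was also lost without young HSC replicate 1 (0.052) or 5 (0.0586) or young GMP replicate 2 (0.0566) or 3 (0.0563). Those young arrays enter only through the shared spread.

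Sod2 was 8.59 ± 0.47 in old HSC and 9.23 ± 0.21 in old GMP, and old HSC replicate 3 overlapped the GMP arrays. The difference was -0.64 ± 0.20 (limma adjusted p = 0.0234). It no longer passed without old GMP replicate 2 (limma adjusted p = 0.0785) or 3 (0.0991) or without old HSC replicate 1 (0.104) or 2 (0.149). Neither Sod2 (-0.41, limma adjusted p = 0.059) nor Prdx3 (-0.48, limma adjusted p = 0.148) passed once the array's interquartile range was in the model. Prdx1 had all old HSC arrays below all old GMP arrays, at 9.18 ± 0.30 against 9.73 ± 0.27, but the difference of -0.56 ± 0.27 did not pass (limma adjusted p = 0.174). With the same difference it passed with only the groups compared (limma adjusted p = 0.04) and with the replicate block (0.017). That block pairs old HSC with old GMP by number, which were not counted as pairs.

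Prdx4 read higher in HSC, at 8.72 ± 0.21 in old HSC and 8.18 ± 0.27 in old GMP, with no overlap, as for 16.3% of all genes. Its difference of 0.55 ± 0.21 did not pass (limma adjusted p = 0.0747), and did without old GMP replicate 2 (0.70, limma adjusted p = 0.0415) or young HSC replicate 4 (0.55, limma adjusted p = 0.0333), and with the interquartile range of each array in the model (0.75, limma adjusted p = 0.00647). Cat differed by -0.22 ± 0.14, Prdx2 by 0.01 ± 0.16 and Sod1 by 0.01 ± 0.11. These 3 genes overlapped between old HSC and old GMP.

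Across the 4 groups, Prdx4 was highest in young HSC, followed by old HSC, young GMP and old GMP, and the arrays of old HSC and young GMP overlapped. Catalase was also highest in young HSC and lowest in old HSC, with both GMP groups between them, and each group overlapped its neighbours in this order. Sod2 and Prdx3 were lowest in old HSC and their other 3 groups overlapped. Prdx1 had the same lowest group, below every array of its neighbour, old GMP, without passing the test. Prdx2 was highest in young HSC, above every young GMP array, and its lower 3 groups overlapped. For Sod1 no neighbouring groups were separated.

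The thioredoxin system returns oxidised peroxiredoxins to their active form. Of 11 measured genes listed under this name 4 fell with age in HSC and 0 rose, with a median of -0.41 log2. As background for this and the following lists, 9.22% of all genes were called lower and 2.25% higher in old HSC, and the median of all genes was 0.03. The lists were not matched to genes of like brightness. The thioredoxin-fold genes Tmx1 (-0.64), Txnl1 (-0.59), Txndc17 (-0.50) and Txndc5 (-0.48) were the ones called. The thioredoxin reductase gene Txnrd1 was not called, with a difference of 0.005 (limma adjusted p = 0.982). A fall of the recycling of peroxiredoxins was therefore not shown. Sulfiredoxin, which repairs overoxidised peroxiredoxins, and the sestrins gave 0 of 4 calls with a median of -0.16. The sestrin Sesn1 (-0.17) and Sesn3 (-0.16) had the largest of these differences, and neither passed.

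Glutathione peroxidases and glutaredoxins work beside peroxiredoxins on peroxides and on protein thiols. In old HSC 5 of 10 fell, with a median of -0.37, led by the glutaredoxins Glrx5 (-0.92), Glrx (-0.91) and Glrx3 (-0.76) and the lipid peroxidase Gpx4 (-0.59). Among the extracellular dismutase and the genes that supply metals to dismutases, 0 of 6 were called, with a median of -0.33. The copper transporter Slc31a1 (-0.56) and the copper chaperone Atox1 (-0.54) had the largest differences without passing. Of 19 NRF2 regulators and targets 3 fell, near the 9.22% of all genes, with a median of -0.24, namely transketolase Tkt (-0.81), the small Maf factor Maff (-0.60) and Gclc, the catalytic subunit of the enzyme that starts glutathione synthesis (-0.51).

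Catalase resides in peroxisomes, and 2 of 12 peroxisome assembly genes fell in old HSC with a median of -0.20, the import receptor Pex7 (-0.69) and Pex3 (-0.64). Among peroxisomal oxidases and beta-oxidation enzymes 2 of 11 fell, Hsd17b4 (-0.51) and Scp2 (-0.45), while the median was 0.03. Of 12 genes of oxidative folding in the endoplasmic reticulum, where Prdx4 works, 2 fell with a median of -0.30, Vkorc1 (-0.67) and the protein disulphide isomerase P4hb (-0.54). In the FoxO and PGC-1 list, 2 of 8 fell, Park7 (-0.50) and the mitochondrial deacetylase Sirt3 (-0.40), and 1 rose, the coactivator Ppargc1a (0.49). In the NADPH oxidase list, whose enzymes make superoxide, 1 of 14 fell, Rac2 (-0.63), and the median was 0.19. Against the 9.22% of all genes called lower, these counts of 1 or 2 genes a list are no result about the lists. All of these differences are on the log2 scale and all calls are by limma adjusted p under 0.05. In old against young GMP 0 genes of these lists were called.

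**Figure D5:**
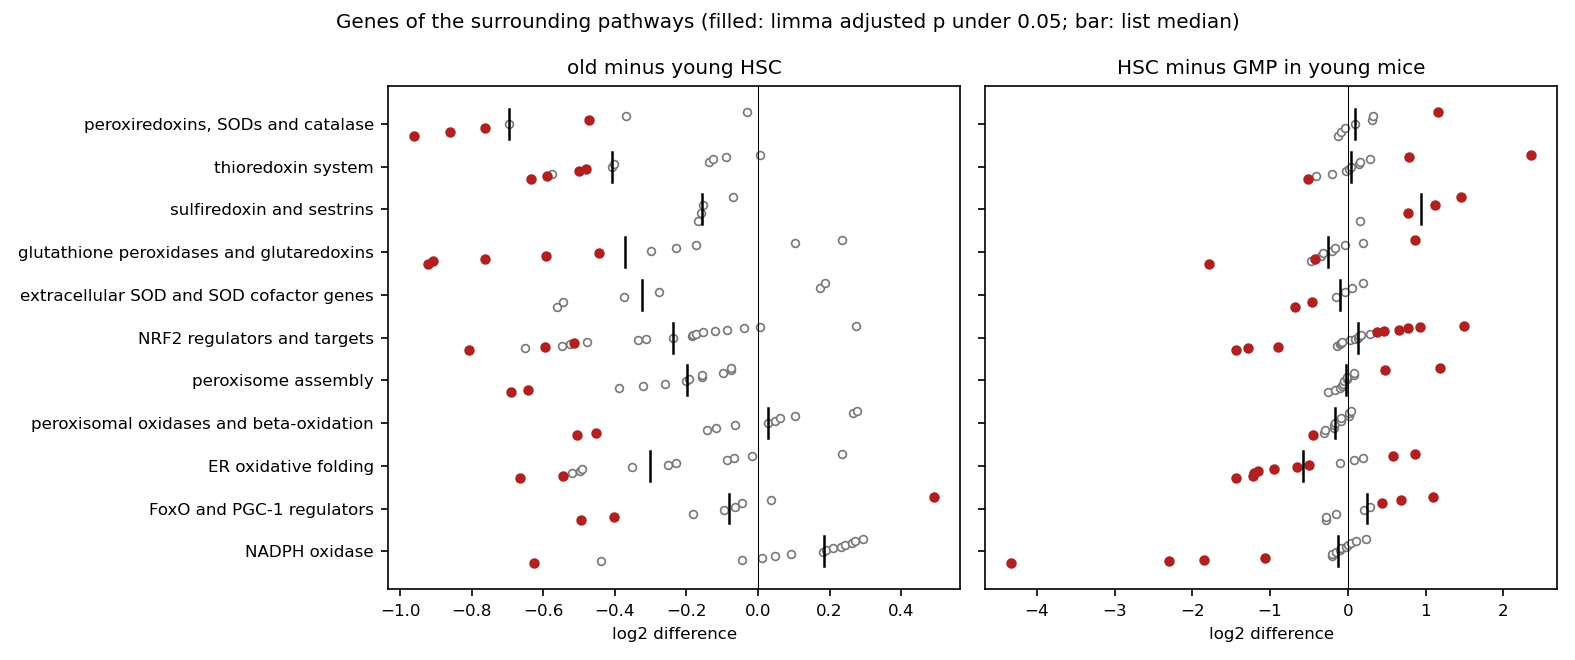
Log2 difference (horizontal axes) of each gene of the surrounding lists (rows) for age in HSC and for HSC against GMP in young mice, filled where the limma adjusted p was under 0.05, with a bar at each list's median. In the age panel most filled points lie below 0, and in the cell type panel the NADPH oxidase gene Cybb lies farthest out at -4.33.

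Between young HSC and young GMP the surrounding lists held genes called in both directions, beside 13.6% of all genes called higher and 10.9% lower in HSC. The thioredoxin inhibitor Txnip was 2.36 log2 higher in HSC and the reductase Txnrd3 0.78 higher, while Txndc12 was lower (-0.51), 3 of 11 genes in all. Sulfiredoxin Srxn1 (0.77), Sesn1 (1.12) and Sesn3 (1.45) were higher in HSC, 3 of 4 genes. Glutathione reductase Gsr was lower (-1.79), as was Gpx1 (-0.42), and Gpx8 was higher (0.86). Of the peroxiredoxins that these systems serve, Prdx4 alone was called between the cell types in young mice.

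NRF2 regulators and targets gave 6 higher and 3 lower of 19 in young HSC, against 13.6% and 10.9% of all genes, among them Maff (1.5), Nqo1 (0.93), Pgd (-1.44) and Taldo1 (-1.28). Of the 12 genes of oxidative folding, 7 were lower in HSC, including Ero1a (-1.44), an oxidase that releases hydrogen peroxide in the compartment of Prdx4, and Pdia4 (-1.22), P4hb (-1.21) and Pdia6 (-1.16), and 2 were higher. Prdx4 was higher in HSC, unlike those 7 genes. The phagocyte oxidase genes Cybb (-4.33), Ncf1 (-2.29), Ncf4 (-1.85) and Cyba (-1.07) were the 4 of 14 NADPH oxidase genes called, all lower in HSC.

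Pex11a (1.18) and Pex3 (0.48) were the 2 of 12 peroxisome assembly genes called in young mice, both higher in HSC, and Acox3 (-0.45) was the 1 of 11 peroxisomal oxidases and beta-oxidation genes, lower in HSC. Among regulators, Ppargc1a (1.10), Foxo1 (0.69) and Sirt3 (0.44) were higher, 3 of 8. Atox1 (-0.68) and the metal-responsive factor Mtf1 (-0.46) were lower, 2 of 6 metal supply genes. Counts such as 2 of 12 and 1 of 11 are near the 13.6% higher and 10.9% lower of all genes. In old mice, where Prdx3 and Sod2 were lower in HSC, Txnip (2.11), Sesn3 (1.24) and Ppargc1a (1.59) were again called higher and Cybb (-4.17), Gsr (-1.89), Pgd (-1.80) and Pdia4 (-1.61) again lower.

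The genes with the most similar profile were found by Pearson correlation with each enzyme gene over the 15 arrays, which share group and array spread, and are given as a description. The closest were Chchd7, Gstk1 and Septin6 for Prdx4, Naca, Lsm3 and 0610009B22Rik for Prdx1, and Rab14, Dph6 and Fbxo28 for Prdx2. For Prdx3 they were Commd4, Psmd8 and Atp6v1e1, for Sod2 Polr2f, Rer1 and Cops4, and for Cat Ddx24, Prpf6 and Parn. The highest r was between 0.94 and 0.98 for these 6 genes. Sod1 had no profile as close, with r of 0.84 for Fbxl18, followed by Cyp27a1 and Speer6-ps1. Gstk1, a glutathione transferase of mitochondria and peroxisomes, had differences like those of Prdx4, at -1.08 log2 with age in HSC and 1.37 between young HSC and young GMP.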

How the data were processed

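The deposited table held RMA-type log2 values of 23309 probe sets on 15 arrays, with 0 missing; RMA, affy and limma are named in the submitters' processing notes without versions, and versions, filters and the genome build are not given in the sources used here. Of the probe sets, 20728 carried 1 gene symbol, 1174 several and 1407 none; only the first were used, and the brightest over the 15 arrays stood for a gene. One limma fit (limma 3.58.1 in R 4.3.3) over the 15 arrays and 19296 genes gave each group its own mean and used empirical Bayes moderation. Benjamini-Hochberg adjustment covered the whole table, with calls at an adjusted p under 0.05. The script was tested on simulated data. The number of arrays limits the precision. Levels were tested only within a gene, across groups.

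The genes described and the gene lists were chosen with earlier results of these data known. A list's called genes were named, the 4 largest at most (the 2 largest differences in a list without calls), and for each enzyme gene the 3 genes of highest correlation. Promoters are RefSeq's. Replicate numbers come from the sample titles. Arrays of young HSC and young GMP with the same number deviated together over genes (r from 0.16 to 0.52, 4 of 4 pairs over 0.1) and count as pairs. Old HSC and old GMP (0.05 to 0.42, 2 of 3 pairs over 0.1) were not counted as pairs. Nor were old and young arrays (-0.24 to 0.15, 1 of 6 pairs over 0.1). Alternatives were quantile normalisation, array spread or Xist as a covariate, only the groups compared, array weights, other probe sets of a gene, dim genes left out, a replicate block, and leaving out arrays.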

Additional observations from a re-analysis of the deposited data

How the results depend on the processing

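Each comparison was refitted in 25 other settings, of which 15 left out 1 array each; the dimmest probe set per gene was a setting chosen after seeing the data. With age in HSC, the 4 enzyme genes called became 2 after quantile normalisation, 0 with the interquartile range of the array as a covariate, 3 with only the groups compared (Cat lost), 6 with array weights, 5 with the mean or the dimmest probe set (Prdx2 gained), 5 with the replicate block or both replicate 4 arrays out (Prdx3 gained), and from 1 (without old HSC replicate 1 or 2) to 5 with 1 array left out; they stayed 4 with Xist or dim genes left out. The genes called, 2213, became 1310 (quantile), 105 (array spread), 3571 (Xist), 871 (only the groups compared), 8966 (array weights), 6280 (replicate block), 6183 (replicate 4 of both young groups left out) and 345 to 5312 with 1 array left out. Of these, 19.6% were higher in old HSC, against 40.6% after quantile normalisation. For age in GMP, 0 genes became 832 (array weights), 232 (replicate block), 188 (both replicate 4 arrays out) and 0 to 12 with 1 array left out, and 0 enzyme genes were called in any setting. Between the age effects, 18 genes became 5 (array spread), 2407 (array weights), 41 (replicate block), 145 (both replicate 4 arrays out) and 1 to 192 with 1 array left out, and array weights called 3 enzyme genes. For age and between the age effects, the replicate block tied old to young arrays of the same number. Those do not count as pairs, so its counts there rest on a pairing that was not borne out.

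For HSC against GMP in young mice, the 1 enzyme gene called became 3 after quantile normalisation, with only the groups compared and with array weights. The count was 2 with array spread, Xist, the mean or dimmest probe set or dim genes left out. It was also 2 with the replicate block or both replicate 4 arrays out, and 1 to 2 with 1 array left out. Of all genes, 4741 were called in young mice. That count was 3919 to 5494 with 1 array left out and 4431 to 6767 in the other settings. In old mice, 4292 of all genes were called. There it was 3272 to 4824 with 1 array left out and 4179 to 7494 in the other settings. In old mice the 2 called, Prdx3 and Sod2, became 1 with array spread (Prdx4 in their place), 1 with Xist or the dimmest probe set, 3 after quantile normalisation (Prdx4 added), 4 with only the groups compared, array weights, the replicate block or both replicate 4 arrays out, and 0 (without old GMP replicate 3 or old HSC replicate 1 or 2) to 3 (without young HSC replicate 4) with 1 array left out; array weights called 7494 genes there against 4292.

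Signs turned only where no call had been made. With array spread, Prdx3 stood at 0.065 for age in HSC, Prdx1 at -0.082 between young HSC and GMP, and Sod1 at -0.032 in old mice and -0.014 between the age effects. Quantile normalisation gave Sod1 0.047 for age in HSC and Cat 0.012 in old mice, and Xist gave Sod1 0.017 for age in HSC and Prdx3 -0.014 for age in GMP. For age in GMP, Prdx3 was -0.15 with array weights and -0.19 with the replicate block and with both replicate 4 arrays out. The block gave Prdx1 -0.030 between young HSC and GMP. In old mice Prdx2 was -0.046 with array weights, -0.060 with the mean and -0.13 with the dimmest probe set. With 1 array left out, the ranges that crossed 0 were, for age in GMP, -0.20 to 0.029 (Prdx2), -0.19 to 0.20 (Prdx3) and -0.0092 to 0.15 (Cat). Between young HSC and GMP they were -0.14 to 0.26 (Prdx1), -0.38 to 0.064 (Prdx3) and -0.17 to 0.014 (Sod2). In old mice they were -0.19 to 0.15 (Prdx2) and -0.064 to 0.072 (Sod1), and between the age effects -0.023 to 0.11 (Sod1). In the young pairs the replicate block changed no call of an enzyme gene other than that of Cat. The causes were not tested. In 25 settings Prdx4 was called 24 times with age in HSC, Sod2 22, Prdx1 18, Cat 17, and Prdx2 and Prdx3 4 each. Leaving out a GMP array kept these HSC differences and changed only the shared spread. The choice of probe set changed the differences of Prdx1 and Prdx2 only. The 25 settings are therefore not separate checks.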
